A study of Mus musculus with 8 samples.

Results

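The block of chromosome 8 described here runs from Hsbp1 to Ankrd11 at chr8:119339623-122927432 on mm10, a stretch of 3.59 Mb that holds Gse1, Irf8, Foxf1, Foxc2 and Foxl1. It was chosen by covered bases, after joining peaks of histone H3 lysine 27 acetylation (H3K27ac) from EnPGC-1-treated cells wherever neighbours lay within 12.5 kb. Of the 45246 domains joined at that distance, this one had the most covered bases. Its members are the peak intervals of both deposited lists that overlap these coordinates, which were 1638 of 253423 distinct intervals of the EnPGC-1 list and 765 of 81522 of the DMSO list. The block was thus selected on the EnPGC-1 list, whose density there is a description and not a finding. The DMSO list was not used to set the limits, although the same cells and loci stand behind both lists.

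The mark was mapped with ChIP-seq, and the CD8+ T cells came from lymph node and spleen of C57BL/6 mice and were stimulated with antibodies to CD3 and CD28. The cells were kept for 48 h with EnPGC-1, which the labels class among PIPs, or with the vehicle DMSO, and the study asked how the compound changes acetylation over the genome. There were 8 samples in 5 groups, namely 2 H3K27ac samples and 1 input for EnPGC-1, and 2 H3K27ac samples, 2 IgG samples and 1 input for DMSO. The data were 1 list of peaks per treatment, so the spread between samples is not known and the treatments were compared without a test. The sequencing depth behind each list is unknown here, so an excess from more reads or another calling threshold and an excess from the compound cannot be told apart.

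H3K27ac is laid down on nucleosomes at active promoters and enhancers, where it marks regulatory DNA that is in use. Long runs of closely spaced acetylated sites often lie around genes of cell identity and are then called clustered or super-enhancers. Irf8, a transcription factor of dendritic cells, B cells and activated T cells, is known to be controlled by enhancers spread over a long distance downstream of it. Foxf1, Foxc2 and Foxl1 form a compact cluster of forkhead factors used in embryonic mesenchyme, in lymphatic vessels and in the gut wall, and Gse1 encodes a subunit of histone deacetylase corepressor complexes.

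The promoter sequences shown are those of 6 genes at which the lists were placed in different ways. Each is the 250 bases before a transcription start, 5′ to 3′ on the strand of the gene, from RefSeq on GRCm38.p6, with each CpG in capitals. Both starts of Irf8 are shown because they carried EnPGC-1 intervals alone. The third listed start of Gse1 is shown because its promoter lay wholly in an EnPGC-1 interval, as did that of its second start. Cyba and Map1lc3b are shown because intervals of the DMSO list reached their promoters, and Mbtps1 and Zc3h18 because they had no interval of either list within 1 kb.
Irf8, start at 120736358: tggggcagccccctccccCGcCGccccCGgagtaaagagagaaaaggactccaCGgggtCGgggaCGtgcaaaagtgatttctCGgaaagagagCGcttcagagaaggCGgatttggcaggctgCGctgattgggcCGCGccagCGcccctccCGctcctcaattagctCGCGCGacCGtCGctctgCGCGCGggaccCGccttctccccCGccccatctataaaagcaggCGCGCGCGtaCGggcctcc
Irf8, start at 120738639: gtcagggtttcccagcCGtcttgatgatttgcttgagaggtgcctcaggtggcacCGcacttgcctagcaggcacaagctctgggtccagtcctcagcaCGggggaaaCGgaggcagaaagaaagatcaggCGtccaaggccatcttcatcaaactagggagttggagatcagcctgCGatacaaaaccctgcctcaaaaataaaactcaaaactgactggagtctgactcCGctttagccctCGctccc
Gse1, start at 120537409: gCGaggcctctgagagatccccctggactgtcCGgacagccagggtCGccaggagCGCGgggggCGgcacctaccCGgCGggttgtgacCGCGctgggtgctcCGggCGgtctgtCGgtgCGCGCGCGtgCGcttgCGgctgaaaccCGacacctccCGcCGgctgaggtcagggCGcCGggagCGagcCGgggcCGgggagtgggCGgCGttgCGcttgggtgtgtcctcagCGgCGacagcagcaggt
Cyba, start at 122432940: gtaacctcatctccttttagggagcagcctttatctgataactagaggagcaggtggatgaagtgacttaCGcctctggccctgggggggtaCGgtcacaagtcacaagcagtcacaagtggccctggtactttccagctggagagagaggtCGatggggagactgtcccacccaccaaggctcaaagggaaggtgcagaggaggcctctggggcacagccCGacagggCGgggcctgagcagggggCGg
Map1lc3b, start at 121590438: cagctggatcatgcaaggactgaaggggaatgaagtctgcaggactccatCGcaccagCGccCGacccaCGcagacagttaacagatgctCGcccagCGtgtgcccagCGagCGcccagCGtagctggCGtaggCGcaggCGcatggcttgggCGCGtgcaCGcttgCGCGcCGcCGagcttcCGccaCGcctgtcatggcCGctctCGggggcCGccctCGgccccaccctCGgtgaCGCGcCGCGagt
Mbtps1, start at 119558761: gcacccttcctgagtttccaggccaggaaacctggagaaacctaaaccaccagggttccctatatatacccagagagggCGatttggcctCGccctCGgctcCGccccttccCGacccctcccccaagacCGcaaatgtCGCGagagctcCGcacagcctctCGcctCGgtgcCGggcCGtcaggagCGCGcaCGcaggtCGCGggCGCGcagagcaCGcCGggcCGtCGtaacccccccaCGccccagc
Zc3h18, start at 122376609: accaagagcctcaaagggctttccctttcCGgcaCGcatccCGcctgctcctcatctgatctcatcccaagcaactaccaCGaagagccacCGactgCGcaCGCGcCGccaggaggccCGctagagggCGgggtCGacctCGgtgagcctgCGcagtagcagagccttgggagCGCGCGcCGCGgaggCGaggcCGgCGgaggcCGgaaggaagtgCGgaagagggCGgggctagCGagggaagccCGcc
The first Irf8 promoter held 29 CpG and the second 8. The Gse1 promoter held 32, Map1lc3b 30, Zc3h18 27, Mbtps1 25 and Cyba 6, so promoters rich in CpG were found both with and without intervals.

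In the block as a whole, the EnPGC-1 list covered 45.3% of the bases (1626 kb) and the DMSO list 12.5% (448 kb), a ratio of 3.63. Over all 20 chromosomes the lists covered 6.28% and 1.57%, a ratio of 4.00. The block was thus 7.22 times as densely covered as the whole EnPGC-1 list and 7.97 times as densely covered as the whole DMSO list. The DMSO list, which had no part in choosing the block, was crowded there too. It placed 0.938% of its intervals in the block, against 0.646% of the EnPGC-1 list, on 0.136% of the length of the 20 chromosomes. When equal numbers of the highest-scoring intervals were taken from both whole lists, the block held 652 EnPGC-1 and 765 DMSO intervals, a ratio of 0.852, so the excess in number was reversed. The EnPGC-1 intervals then covered 1.98 times the DMSO bases, against 1.65 times over the whole lists, with 24.8% of the block covered by them. The choice of the block by EnPGC-1 covered bases can favour this ratio. So can the setting, which shortened the EnPGC-1 list alone and kept the wider of intervals with tied scores. Joined by the same distance, DMSO intervals made 38 separate domains in the block. The largest of these, chr8:120128932-120586217, held 123 intervals with 72.6 kb covered, lay over 6430548M08Rik, Cibar2, Gse1 and Gins2, and was the first of all 31494 DMSO domains.

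The limits of the block are gaps in the EnPGC-1 list. On the low side, the last interval outside had a score of 3.69 and lay 13.4 kb from the first interval inside, which had a score of 5.07. On the high side, the last interval inside had a score of 1.34 and the first outside, 15.4 kb further, a score of 2.68. The score is the value deposited with each interval, taken to be a −log10 q-value, and is comparable within 1 list only. The limits depend on the joining distance. Joined within 5 kb, the same stretch fell into 30 domains, the largest being chr8:120199625-120706753 around Gse1, 0.507 Mb long. Joined within 20 kb, it became part of a domain of 4.14 Mb. The first rank by covered bases also holds at 12.5 kb only. At 5 kb the largest domain in the block had 271 kb covered and was second to a chromosome 4 domain with 329 kb, and at 20 kb it had 1705 kb and was second to a chromosome 4 domain with 1830 kb.

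Cut into 72 bins of 50 kb from the first base, every bin was covered by both lists. The EnPGC-1 list covered 19.1% of the lowest bin, 46.2% of the median bin and 71.6% of the highest, and the DMSO list 2.27%, 11.6% and 22.5%. The median 50 kb bin of all chromosomes was covered to 2.23% for EnPGC-1 and 0.586% for DMSO. Above the 95th percentile of all bins lay 67 of the 72 bins in the EnPGC-1 list (28.9%), which the choice of the block favours, and 62 of 72 in the DMSO list (7.71%). The EnPGC-1 list covered at least 2 times the DMSO bases in 72 of 72 bins, while 70.6% of all bins did so, a count that the choice of the block can favour. It covered at least 4 times the DMSO bases in 26 of 72 bins, against 50.7% of all bins. The 70.6% and 50.7% include bins with EnPGC-1 bases and no DMSO bases. Over all bins the lower quartile of DMSO coverage was 0%, while every bin of the block held DMSO bases. The shares of the block and of all bins are thus not a like comparison. No bin had 2 times or 4 times more DMSO bases, which 1.75% and 1.46% of all bins had. With equal numbers of intervals in both lists, 51.4% of the 72 bins kept at least 2 times the DMSO bases. The ratio ran from 2.07, in the bin of Zdhhc7 and 6430548M08Rik, to 8.44, in the bin at 0.55 Mb in the low part of Usp10. Bins dense in one list tended to be dense in the other (Pearson r = 0.60 over 72 neighbouring bins, given as a description).

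**Figure D1:**
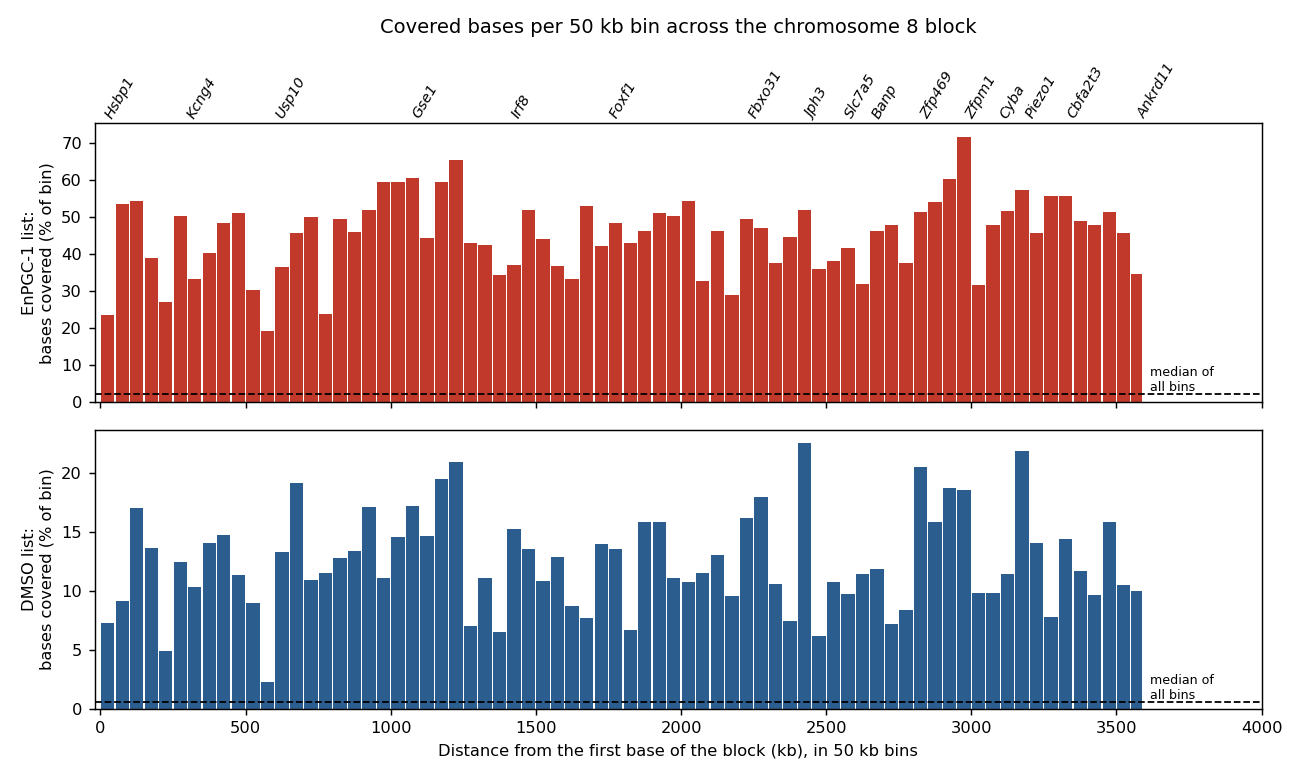
Bases covered by the EnPGC-1 list (top) and the DMSO list (bottom) in each 50 kb bin, in percent of the bin, against the distance in kb from the first base of the block. Gene names stand above the middle of selected genes, the dashed lines are the medians of all bins (2.23% and 0.586%), and the 2 axes have different scales. Every bar stands above its dashed line, with the tallest EnPGC-1 bar (71.6%) at Zfpm1 and the tallest DMSO bar (22.5%) at Jph3.

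The densest bin of the EnPGC-1 list lay at 2.95 Mb over Zfpm1, which encodes FOG-1, a partner of GATA factors. It was covered to 71.6% by EnPGC-1 intervals and 18.6% by DMSO intervals. The densest bin of the DMSO list lay at 2.40 Mb in Jph3, a junctophilin of excitable cells, with 52.0% and 22.5%. Next came the bin at 3.15 Mb in Piezo1, a mechanosensitive ion channel, with 57.3% for EnPGC-1 and 21.9% for DMSO. The emptiest bin of both lists was that of Usp10, a ubiquitin-specific protease, at 0.55 Mb, with 14 EnPGC-1 intervals covering 19.1% and 2 DMSO intervals covering 2.27%.

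Read along the chromosome in 11 stretches of unequal length and gene number, coverage was highest in 2 stretches that hold a single protein-coding gene. Zfpm1 with the DNA up to Trhr2 was covered to 62.9% by EnPGC-1 intervals and 17.1% by DMSO intervals, and Gse1 to 58.1% and 16.4%. This order depends on how the stretches were cut. Taken gene by gene with 10 kb on each side, Zfpm1 ranked 2 for EnPGC-1 and 5 for DMSO. Gse1 ranked 8 and 12, and Cyba ranked 1 for EnPGC-1. The stretch from Hsbp1 to the DNA before Gse1, with 21 genes, had 39.6% and 11.5%. The stretch from Gins2 past Cox4i1 to Irf8 had 39.5% and 8.47%, the lowest DMSO share of 11 stretches. The other 7 stretches lay between 42.5% and 48.9% for EnPGC-1 and between 11.6% and 13.3% for DMSO. DNA inside protein-coding genes was covered to 49.8% and 14.1%, and DNA between them to 39.3% and 10.4%. Over all chromosomes the same shares were 9.74% and 2.57% inside genes, and 4.05% and 0.923% between them, so both kinds of DNA were more densely covered in the block.

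The 2 longest stretches without a protein-coding gene were densely covered as well. The 328 kb between Irf8 and Foxf1, chr8:120756695-121084385, held 150 EnPGC-1 intervals over 42.2% of its bases and 67 DMSO intervals over 10.9%. The 400 kb between Foxl1 and 1700018B08Rik, chr8:121130645-121530775, held 188 EnPGC-1 intervals over 44.3% and 80 DMSO intervals over 11.8%. The first of these is the side of Irf8 on which its known distant enhancers lie. The gene itself with 10 kb on each side was covered to 38.8% for EnPGC-1 and 14.4% for DMSO.

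The way the block was joined allows no EnPGC-1 gap over 12.5 kb, so its gaps are a description. The 1637 EnPGC-1 gaps inside the block had a median of 791 bp, and the 764 gaps of the DMSO list a median of 2738.5 bp, with 37 of them over 12.5 kb. The longest EnPGC-1 gap was 11.24 kb, chr8:121829934-121841170, from just beyond Klhdc4 into Gm42048. The second was 10.3 kb at the start of Mbtps1, the protease that activates SREBP factors, and the third 9.38 kb over the starts of Gm39270 and Zc3h18. The longest DMSO gap was 28.3 kb inside Zfp469 and held 13 EnPGC-1 intervals.

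Gene by gene, coverage was taken over the gene with 10 kb on each side. The windows of neighbouring genes often overlap, so the 63 protein-coding genes are not independent. Their median was 47.2% for EnPGC-1 and 12.2% for DMSO, against 8.29% and 1.95% over the 21631 protein-coding genes. The middle of the 63 genes lay between 38.2% and 53.0% in the EnPGC-1 list (quartiles) and between 8.92% and 14.6% in the DMSO list. All 63 were covered at least 2 times as densely by the EnPGC-1 list, which 80.9% of all genes were, a count that the choice of the block can favour. The ratio ran from 2.05 at Map1lc3b to 12.1 at Foxl1 with a median of 3.88, and 28 of 63 genes reached the ratio of the whole lists. Ankrd11 extends beyond the block, and its 13.1% and 3.65% were the lowest EnPGC-1 share and the second lowest DMSO share.

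**Figure D2:**
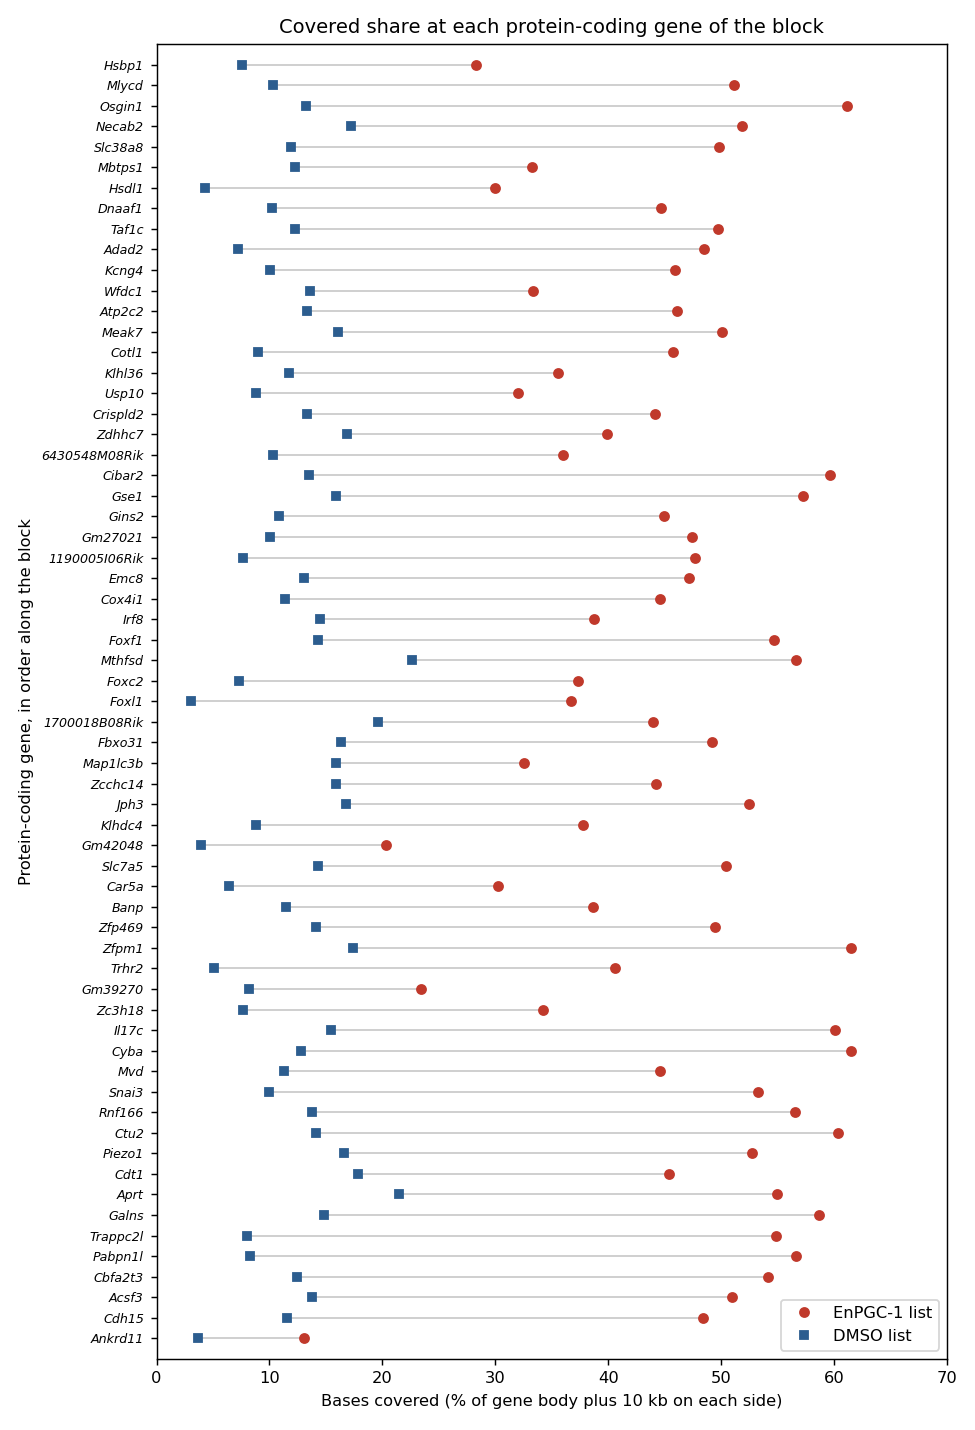
Bases covered at each of the 63 protein-coding genes, in percent of the gene with 10 kb on each side, for the EnPGC-1 list (red circles) and the DMSO list (blue squares). Genes run from the low end of the block at the top to the high end at the bottom, and a grey line joins the 2 values of a gene. In every gene the circle lies right of the square, with circles from 13.1% to 61.5% and squares from 3.03% to 22.6%.

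Gse1, at chr8:120228501-120581383, is the longest gene of the block with 352.9 kb. It was overlapped by 165 EnPGC-1 intervals covering 58.1% and 94 DMSO intervals covering 16.4%. Cut into 5 equal pieces, the gene was covered to between 53.1% and 61.5% for EnPGC-1 and between 14.6% and 20.9% for DMSO. The ratio of covered bases ran from 2.54 to 4.16 between the pieces. The piece with the most DMSO bases, chr8:120440230-120510806, was the one with the fewest EnPGC-1 bases. The widest EnPGC-1 interval of the block, chr8:120545606-120555517, lay in the last piece. It spanned 9912 bp with 14 summits and was the only one to overlap 5 DMSO intervals. The widest DMSO interval, chr8:120498331-120501879, also lay in Gse1 and spanned 3549 bp. Of the 3 listed starts of Gse1, the one at 120535857 had intervals of both lists within 1 kb, and those at 120488866 and 120537409 had EnPGC-1 intervals alone. The promoters of the starts at 120535857 and 120537409, the latter shown above, were covered by the EnPGC-1 list over all 250 bases.

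Irf8, at chr8:120736358-120756694, showed EnPGC-1 intervals along the gene and DMSO intervals only away from its starts. The gene was overlapped by 12 EnPGC-1 and 7 DMSO intervals, covering 49.1% and 22.4% of it. The EnPGC-1 interval chr8:120735669-120736852, with a score of 2.51, lay over the first start and all 250 bases of the CpG-rich promoter shown above. A second, chr8:120738428-120739711, with a score of 6.45, lay over the second start and 211 of the 250 bases before it. Neither overlapped a DMSO interval, and no DMSO interval lay within 1 kb of either start. The first stood at rank percentile 22.3 of the EnPGC-1 scores and the second at 93.4. The lowest EnPGC-1 score with equal numbers of highest-scoring intervals in both lists was 4.21, so the interval over the first start was absent in that setting. The 7 DMSO intervals began at 120742111 and ended at 120756400, and each overlapped an EnPGC-1 interval. The highest EnPGC-1 score in the gene was 10.4, at chr8:120750056-120751005, inside a DMSO interval of score 2.58. The highest DMSO score was 4.52, at chr8:120754503-120755109, inside an EnPGC-1 interval of 3116 bp with 5 summits. With equal numbers of highest-scoring intervals in both lists, Irf8 with 10 kb on each side was covered less by the EnPGC-1 list, by a difference of -5.70 percentage points against 24.3 points with all intervals.

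The forkhead cluster held intervals of both lists at Foxf1 and Foxc2 and of the EnPGC-1 list alone at Foxl1. With 10 kb on each side, Foxf1 (chr8:121084386-121088154) was covered to 54.7% and 14.3%, Foxc2 (chr8:121116171-121118895) to 37.4% and 7.33%, and Foxl1 (chr8:121127685-121130644) to 36.7% and 3.03%. With these flanks, DMSO coverage was thus lower from each of the 3 forkhead genes to the next, while Foxc2 and Foxl1 had nearly the same EnPGC-1 coverage. Within the gene bodies alone this order did not hold. The DMSO shares there were 28.2% at Foxf1, 27.9% at Foxc2 and 0% at Foxl1, and the EnPGC-1 shares 56.9%, 34.8% and 53.4%.
Over Foxf1 lay 1 EnPGC-1 interval of 2144 bp, chr8:121084400-121086543, with 3 summits. The DMSO list had 2 intervals there, chr8:121084603-121085339 inside it and chr8:121087068-121087391 beside it, which overlapped no EnPGC-1 interval. Foxc2 had 2 EnPGC-1 intervals, chr8:121116141-121116767 with a score of 5.87 and chr8:121117962-121118311 with 4.10. Its 1 DMSO interval, chr8:121116189-121116947, overlapped the first. Foxl1 had 1 EnPGC-1 interval of 1582 bp with 4 summits, chr8:121127857-121129438, and 0 DMSO intervals. In the 10 kb on each side of Foxl1 there was 1 DMSO interval. Mthfsd, a gene of folate metabolism between Foxf1 and Foxc2, had the highest DMSO share of all 63 genes, with 56.6% for EnPGC-1 and 22.6% for DMSO.

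**Figure D3:**
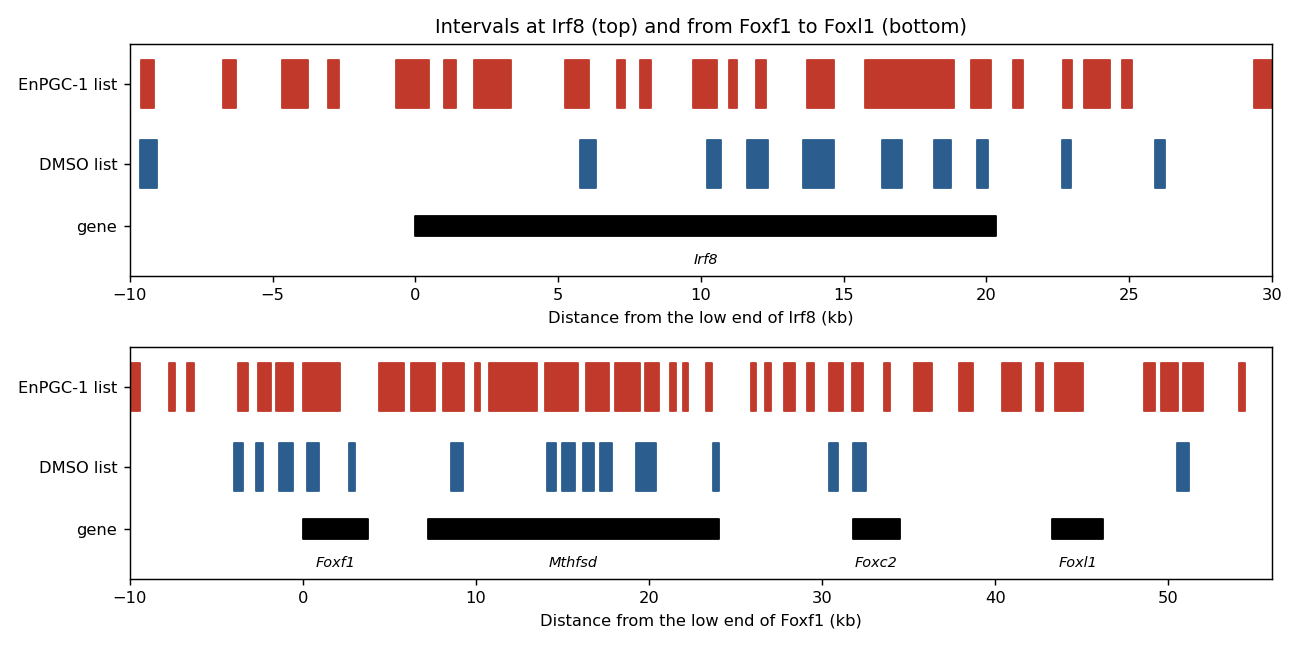
Intervals of the EnPGC-1 list (red) and the DMSO list (blue) around Irf8 (top) and from Foxf1 to Foxl1 (bottom), drawn to scale over the genes (black), against the distance in kb from the low end of Irf8 or of Foxf1. EnPGC-1 intervals lie over the low end of Irf8, where the DMSO list has none, and over Foxl1, which has 0 DMSO intervals, while Foxf1 and Foxc2 have intervals of both.

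Presence at a gene end was counted within 1 kb of either end, since the table of genes gives no strand. All 63 protein-coding genes had an EnPGC-1 interval there, against 72.8% of all genes, and 48 of 63 had a DMSO interval, against 41.6%. The choice of the block on EnPGC-1 intervals favours the first of these counts, which is a description. Intervals of both lists marked 48 genes (39.4% of all genes) and EnPGC-1 intervals alone 15 (33.4%). DMSO intervals alone marked 0 (2.19%), and 0 genes had none (25%). The 15 genes were Mlycd, Mbtps1, Cotl1, Klhl36, Zdhhc7, 6430548M08Rik, Cox4i1, Foxl1, Gm42048, Banp, Zfpm1, Gm39270, Il17c, Snai3 and Cbfa2t3. Of these, Zdhhc7, 6430548M08Rik and Cbfa2t3 had intervals of both lists at a listed start inside the gene, and within 1 kb of that of Zdhhc7 EnPGC-1 intervals covered 29.0% and DMSO intervals 44.3%. With equal numbers of highest-scoring intervals, each list alone marked 9 genes, so the absence of genes marked by the DMSO list alone did not hold in that setting. This setting both shortens the EnPGC-1 list and raises its lowest score from 1.31 to 4.21, and their parts were not tested. A window of 2001 bp laid anywhere in the block often met an interval. Of 1793 such windows tiled over the block, 89.3% held an EnPGC-1 interval and 46.1% a DMSO interval.

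Of the 14 transcription and chromatin regulators of the block, 14 had an EnPGC-1 interval at a gene end and 9 a DMSO interval, with median coverage of 42.5% and 11.96%. Of the 63 genes of the block, 63 and 48 had such intervals, against 72.8% and 41.6% of all genes. The EnPGC-1 counts of this and the next gene lists were thus fixed, since every gene of the block was marked. Zfpm1 had 61.5% and 17.4%, and its ends were marked by the EnPGC-1 list alone. Cbfa2t3, a corepressor of blood cell formation, had 54.2% and 12.4%. Snai3, a zinc finger repressor of the Snail family, had 53.3% and 9.97%. Zfp469, a large zinc finger gene of 229.5 kb, had 49.5% and 14.1%. Zcchc14 had 44.3% and 15.9%, and Banp, a DNA-binding protein of CpG island promoters, 38.6% and 11.5%. Zc3h18, which links the nuclear cap-binding complex to RNA decay, had 34.2% and 7.64%. Trhr2, a receptor for thyrotropin-releasing hormone that was placed in this list, had 40.6% and 5.09%. Gse1, Irf8, the forkhead genes and Ankrd11, a chromatin regulator, complete the list.

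Of the 11 mitochondrial and metabolic genes, 11 had an EnPGC-1 interval at a gene end and 9 a DMSO interval, with median coverage of 51.0% and 13.2%. Of the 63 genes of the block, 63 and 48 had such intervals. Cox4i1, which encodes a subunit of cytochrome c oxidase, had 44.6% and 11.4%. Its body held 2 EnPGC-1 intervals over 68.1% of the gene and 0 DMSO intervals. Mlycd, malonyl-CoA decarboxylase, had 51.1% and 10.3% and was likewise marked at its ends by the EnPGC-1 list alone. Acsf3, the mitochondrial malonyl-CoA synthetase, had 51.0% and 13.8%. Slc7a5, the large neutral amino acid transporter that activated T cells depend on, had 50.4% and 14.3%, with 11 intervals of each list in the gene. Aprt, the salvage enzyme for adenine, had 55.0% and 21.4%, the second highest DMSO share of the 63 genes. Osgin1, a gene of the response to oxidative stress, had 61.2% and 13.2%, and Galns, a lysosomal sulfatase, 58.6% and 14.9%. Mvd, an enzyme of the mevalonate pathway, had 44.6% and 11.3%. The lowest were Car5a, a mitochondrial carbonic anhydrase, with 30.2% and 6.40%, and Hsdl1 with 29.9% and 4.25%.

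The 5 genes listed for replication and cell division all had intervals of both lists at a gene end, with medians of 45.3% and 13.1%. In the block, 48 of the 63 genes had intervals of both lists there, and the other genes EnPGC-1 intervals alone. Cdt1, which licenses replication origins, had 45.3% and 17.8%, and Gins2, a subunit of the replicative helicase, 44.9% and 10.9%. Ctu2, a tRNA thiolation enzyme, had 60.4% and 14.1%, Emc8, of the ER membrane complex, 47.2% and 13.1%, and Klhdc4 37.8% and 8.84%. Of the 8 immune genes, 8 had an EnPGC-1 interval and 5 a DMSO interval at a gene end, with medians of 53.7% and 14.0%. Cyba, which encodes the p22phox subunit of the NADPH oxidase, had 61.5% in the EnPGC-1 list, the highest share of the 63 genes, and 12.8% in the DMSO list. Il17c, an epithelial cytokine, had 60.1% and 15.5%, and its body held 2 EnPGC-1 and 0 DMSO intervals. Rnf166, a ubiquitin ligase, had 56.6% and 13.7%, and Piezo1 52.7% and 16.6%. The 4 autophagy and ubiquitin genes all had intervals of both lists at a gene end, with medians of 52.0% and 14.8%. Map1lc3b, which encodes the autophagosome protein LC3B, had 32.5% and 15.9%, the smallest ratio of the 63 genes, and with equal numbers of intervals the difference was -5.30 percentage points. Fbxo31, an F-box protein, had 49.2% and 16.4%, and Trappc2l, of the TRAPP trafficking complex, 54.9% and 7.999%.

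Among genes in none of these lists, the most covered by the EnPGC-1 list were Cibar2 with 59.7% and 13.5%, Pabpn1l with 56.7% and 8.24%, Jph3 with 52.5% and 16.8%, Necab2 with 51.9% and 17.2%, and Meak7 with 50.1% and 16.1%. The least covered were Gm42048 with 20.3% and 3.97%, Gm39270 with 23.4% and 8.23%, Hsbp1 with 28.2% and 7.56%, Usp10 with 32.0% and 8.80%, and Mbtps1 with 33.2% and 12.2%. Even the least covered of these stood above the median of all genes in both lists.

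Beside its protein-coding genes the block holds 48 long non-coding RNA genes, of which 45 were overlapped by an EnPGC-1 interval and 29 by a DMSO interval, against 69.8% and 36.6% of the 12697 such genes of all chromosomes. Here too the choice of the block favours the EnPGC-1 count. The median share of their bodies covered was 45.1% for EnPGC-1 and 8.13% for DMSO, against 53.4% and 12.5% for the 63 protein-coding genes. Fendrr, a long non-coding RNA gene at chr8:121054882-121083110 that lies beside Foxf1 and is known from mouse embryonic mesenchyme, was covered to 46.9% by 14 EnPGC-1 intervals and to 14.7% by 8 DMSO intervals. All 8 DMSO intervals overlapped an EnPGC-1 interval. The space between Fendrr and Foxf1 was occupied at its Fendrr side by an EnPGC-1 interval, chr8:121082826-121083789, and by a DMSO interval, chr8:121083017-121083797, with scores of 5.58 and 4.00 in their own lists.

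Transcription starts were listed for 45 of the 63 genes, not including Foxf1, Foxc2 or Foxl1. Within 1 kb of a start, 37 of the 45 had an EnPGC-1 interval, against 67.3% of all genes with a listed start, and 22 had a DMSO interval, against 33.5%. The choice of the block favours the EnPGC-1 count. Intervals of both lists marked 20 (30.5% of all) and EnPGC-1 intervals alone 17 (36.8%). DMSO intervals alone marked 2 (3.09%), and 6 had none (29.6%). The 2 with DMSO intervals alone were Mvd and Ankrd11, whose start lies beyond the block, and the 6 with none were Mbtps1, Klhl36, Usp10, Zc3h18, Gm39270 and Gm42048. Inside the block lay 54 starts of 44 genes. An EnPGC-1 interval lay within 1 kb of 46 of them (85.2%) and a DMSO interval within 1 kb of 22 (40.7%), slightly less than the 89.3% and 46.1% of tiled windows given above. The longer gaps held starts as follows. The 29 EnPGC-1 gaps of 5 kb or more made up 5.73% of the block and held 8 of the 54 starts (14.8%), those of Gm39270, Gm42048, Klhl36, Mbtps1, Mvd, Usp10 and Zc3h18. The starts of Gm39270 and Zc3h18 lie close together in 1 gap, so these 8 starts are not separate cases. In the DMSO list, the 214 gaps of 5 kb or more made up 55.8% of the block and held 32 of the 54 starts (59.3%), close to their share of the length.

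Around starts, coverage stood less far above its surroundings than it did over all chromosomes. Within 500 bp of the 54 starts the EnPGC-1 list covered 48.8% and the DMSO list 13.9%, and over the rest of the 5 kb on each side 38.6% and 9.87%, ratios of 1.26 and 1.41. Over the 21045 starts of all chromosomes the ratios were 2.75 for the EnPGC-1 list (33.9% and 12.3%) and 3.48 for the DMSO list (11.3% and 3.25%). At Map1lc3b, DMSO intervals covered 242 of the 250 bases before the start shown above and EnPGC-1 intervals 0 of them, while 2 EnPGC-1 intervals lay within 1 kb. At Cyba, EnPGC-1 intervals covered all 250 bases of a promoter with few CpG and DMSO intervals 131 of them. At Mvd, DMSO intervals covered 217 of 250 bases and no EnPGC-1 interval lay within 1 kb.

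**Figure D4:**
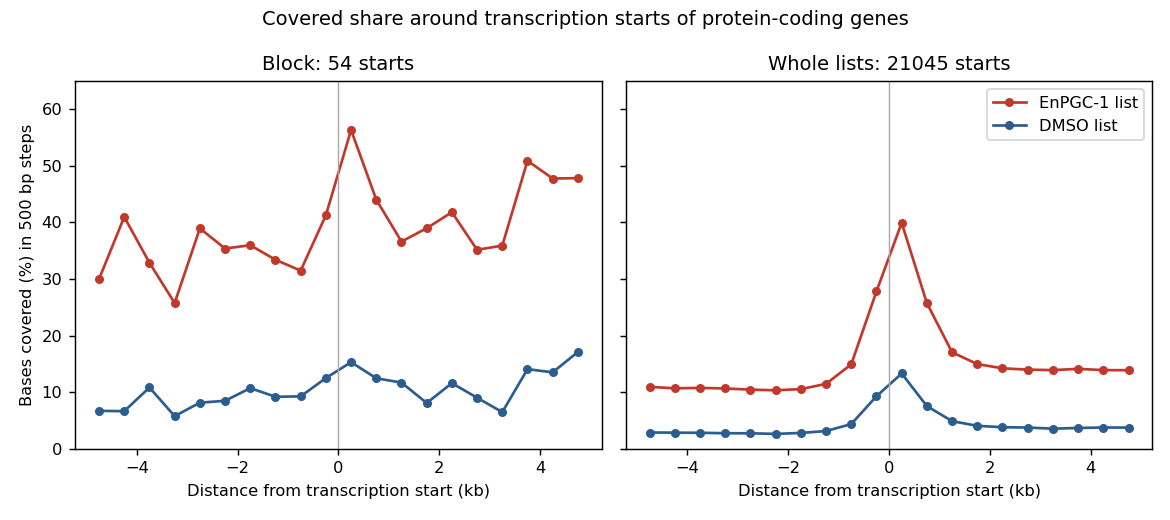
Bases covered, in percent, in 500 bp steps from 5 kb before to 5 kb after transcription starts, for the EnPGC-1 list (red) and the DMSO list (blue), at the 54 starts of the block (left) and at 21045 starts of all chromosomes (right). At the block the curves stand high on both sides of the start, with near-to-far ratios of 1.26 and 1.41, while over all starts they rise to a peak, with ratios of 2.75 and 3.48.

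The promoters of the block were richer in CpG than the rest. The median ratio of observed to expected CpG in the 250 bases before a start was 0.756 over the 54 starts and 0.537 over all 21045, and 61.1% against 45.2% had a ratio of 0.6 or more. Starts with EnPGC-1 intervals alone had a median ratio of 0.812 over 25 starts, those with both lists 0.624 over 21 starts, and those with neither 0.690 over 7 starts. Motifs were searched on both strands of the 250 bases. The estrogen-related receptor element TCAAGGTCA was found in 0 of 54 block promoters and 0.323% of all promoters. The AP-1 site TGANTCA was found in 5.56% and 6.17%, the forkhead site TGTTTAC in 3.70% and 2.64%, and the TATA box TATAAA in 7.41% and 11.7%. The first Irf8 promoter shown above held a TATA box. The 4 motifs do not contain one another, and such matches describe the letters alone.

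Most DMSO intervals of the block lay at EnPGC-1 intervals, and fewer EnPGC-1 intervals lay at DMSO intervals. By an overlap of at least 1 bp, 620 of 1638 EnPGC-1 intervals overlapped a DMSO interval (37.9%, exact binomial 95% interval 35.5 to 40.3), and 664 of 765 DMSO intervals overlapped an EnPGC-1 interval (86.8%, 84.2 to 89.1). Over the whole lists the shares were 23.1% and 73.7%. The bracketed ranges cover counting error only. When an overlap of 50% of the interval was required, the block shares were 16.7% and 74.2%. A high overlap has to be read against density, since EnPGC-1 intervals covered 45.3% of the block to begin with. Of the DMSO bases in the block, 72.1% lay inside EnPGC-1 intervals, while over the whole lists 62.0% did, where EnPGC-1 intervals covered 6.28%. Most of the overlaps were nested or paired. There were 313 DMSO intervals wholly inside an EnPGC-1 interval and 40 EnPGC-1 intervals wholly inside a DMSO interval. Of the EnPGC-1 intervals, 559 overlapped 1 DMSO interval, 53 overlapped 2 and 7 overlapped 3.

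The 101 DMSO intervals without an EnPGC-1 partner had a median distance of 428 bp to the nearest EnPGC-1 interval, 59 of them (58.4%) lay within 500 bp, and the largest distance was 1906 bp. Over the whole lists the median was 1371 bp and 23.5% lay within 500 bp. With a median gap of 791 bp between EnPGC-1 intervals, the density of the block keeps such distances short. The 1018 EnPGC-1 intervals without a DMSO partner had a median distance of 1470.5 bp to the nearest DMSO interval, and 391 of them lay over 2 kb away, the farthest at 13580 bp. Over the whole lists this median was 5721 bp, and 74.3% lay over 2 kb away. No DMSO interval of the block lay over 2 kb from an EnPGC-1 interval, while 40.3% of those without a partner did over the whole lists.

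Intervals of the block were wide and of ordinary score. The median width was 748.5 bp for EnPGC-1 intervals and 498 bp for DMSO intervals, against 499 bp and 431 bp over the whole lists. More than 1 summit was listed for 37.9% of EnPGC-1 and 4.84% of DMSO intervals, and 34.9% and 7.97% were at least 1 kb wide. Over the whole lists, 20.7% and 3.42% had more than 1 summit, and 14.2% and 4.39% were at least 1 kb wide. EnPGC-1 intervals that overlapped the other list had a median width of 994 bp and those that did not 613 bp. DMSO intervals had medians of 521.5 bp and 418 bp in the same classes.

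**Figure D5:**
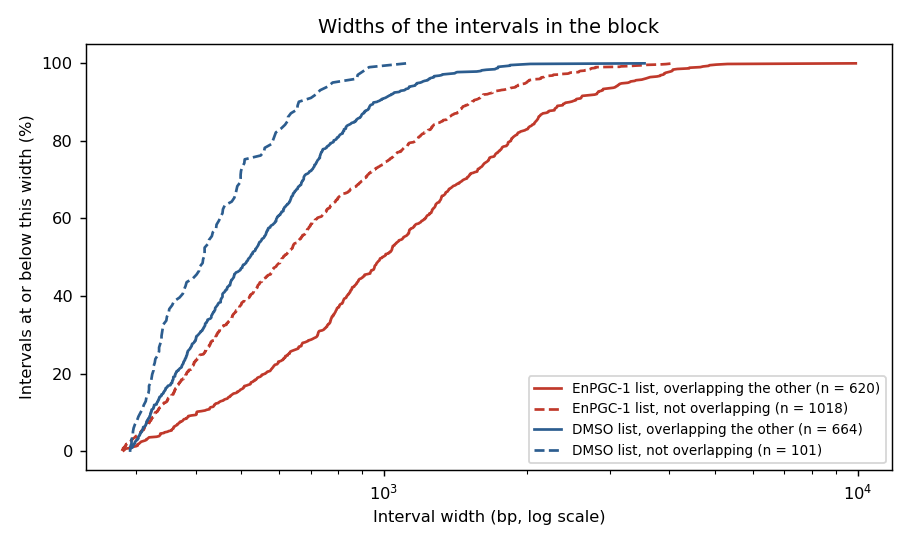
Cumulative share of block intervals, in percent, by interval width in bp on a log axis, for the EnPGC-1 list (red) and the DMSO list (blue), split into those that overlap the other list (solid) and those that do not (dashed). The solid EnPGC-1 curve lies farthest right, with a median of 994 bp over 620 intervals, and the dashed DMSO curve farthest left, with a median of 418 bp over 101 intervals.

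The highest score in the block was 13.4 for EnPGC-1 and 6.50 for DMSO. Elsewhere, 257 EnPGC-1 intervals and 314 DMSO intervals of the whole lists had higher scores, up to 541 and 179. Of the block intervals, 11.7% for EnPGC-1 and 10.2% for DMSO were at or above rank percentile 90 of the scores of their own list, against 8.998% and 9.48% of all intervals with ties counted alike. The median block interval stood at rank percentile 53.9 of the EnPGC-1 list and 46.2 of the DMSO list, so the block was not made of high-scoring intervals in the main. The median interval of each whole list stood at 49.7 and 46.2, with tied scores given their average rank.
The highest EnPGC-1 score was at chr8:122221901-122222783 in Zfp469, and the second, 11.5, at chr8:119871944-119872541 in Klhl36, which overlapped no DMSO interval. The other 8 of the 10 highest lay in Necab2, Irf8, Jph3, Rnf166, Piezo1 with or without Ctu2, Gse1 and the gene-free DNA after Irf8. Those in Necab2, in Rnf166 and in the gene-free DNA also overlapped no DMSO interval, while the rest did overlap. The highest DMSO score was at chr8:119992125-119993054 over the start of Crispld2. The other 9 of the 10 highest DMSO intervals lay in Gse1, Fbxo31, Zfp469, Zcchc14, Cbfa2t3, Jph3 or outside genes, and all 10 overlapped an EnPGC-1 interval. Of the genes named, Klhl36, Necab2, Irf8, Rnf166, Piezo1 and Ctu2 were among the 10 highest of the EnPGC-1 list alone, Crispld2, Fbxo31, Zcchc14 and Cbfa2t3 among those of the DMSO list alone, and Gse1, Jph3 and Zfp469 among both. The last places of the DMSO list were tied. Its intervals in Zcchc14, Cbfa2t3 and Jph3 had a score of 5.11. Narrower intervals in Meak7, in Gm27021 with Emc8 and outside genes had the same score. Width and not score thus set this part of the split.

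The next 2 domains by EnPGC-1 covered bases lay on chromosomes 4 and 10 and were chosen in the same way. At chr4:151860467-154839486 the EnPGC-1 list had 1323 intervals over 40.6% and the DMSO list 576 over 11.3%. At chr10:79519658-81435785 they had 871 over 48.0% and 412 over 13.1%. The ratio of covered bases was 3.63 on chromosome 8, 3.60 on chromosome 4 and 3.67 on chromosome 10, and the share of DMSO intervals overlapped was 86.8%, 89.2% and 86.4%. The chromosome 8 block differed from these in length and gene content, with 17.6 protein-coding genes per Mb against 12.1 on chromosome 4, 60.02 on chromosome 10 and 8.22 over all chromosomes. No test of these differences was made.

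The cell type given in the labels was set beside the intervals at markers elsewhere in the genome. Of 7 T and CD8 cell markers, 6 had an EnPGC-1 interval and 3 a DMSO interval at a gene end, where 72.8% and 41.6% of all genes had one, and Cd3d had neither. Their coverage was 2.77 to 18.9% (median 6.25%) and 0 to 6.27% (median 2.97%), against medians of 8.29% and 1.95% over all genes. Of 5 B cell markers, 4 and 2 were marked, with 1.06 to 35.8% (median 29.4%) and 0 to 10.9% (median 3.41%), and Ms4a1 had neither. Of 8 myeloid and dendritic cell markers, 5 and 4 were marked, with 4.64 to 29.4% (median 15.2%) and 0 to 13.3% (median 3.01%). Among these, Flt3, Itgam and Itgax had neither. In the EnPGC-1 list the median of the T and CD8 markers was thus below that of all genes and of the other marker lists. In the DMSO list their median of 2.97% was above the 1.95% of all genes and close to the 3.01% of the myeloid and dendritic markers. The part of other cells in the intervals at Irf8 and Cyba, genes also used by myeloid cells, was not tested. In a bulk sample, more cells carrying a mark and more mark per cell cannot be told apart.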

How the data were processed

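Treatment and antibody in the labels set the groups of the H3K27ac, IgG and input samples. MACS2 2.2.2.20160309, Bowtie 1.1.2, Trimmomatic 0.38, ChIPseeker 11.16.1 and Picard 0.118 were used on build mm10, per the submitters' processing notes. For calling parameters, control and pooling, the answer is not given in the sources used here, and nothing says that replicates came from separate animals. The authors deposited 1 peak list per treatment with chromosome, start, end, name and score. This deposited score was taken to be a −log10 q-value, because its lowest values were 1.31 and −log10 of 0.05 is 1.30, and was used within 1 list only.

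Entries repeating 1 interval with several summits were combined, keeping the highest score. Coordinates are 1-based. Genes and promoters came from RefSeq tables of GRCm38.p6, which shares the coordinates of mm10. Marked genes had an interval within 1 kb of either gene end, since strand is listed for part of the genes only. Length over all chromosomes runs to the last interval or gene. Shares have exact Clopper-Pearson intervals at 95%, which cover counting error only. Named were the 5 genes of the block's label, members of 5 gene lists (transcription and chromatin, mitochondrial and metabolic, replication and division, immune, autophagy and ubiquitin), of the remaining genes the 5 most and 5 least covered by the EnPGC-1 list, and the 10 highest-scoring intervals of each list. Other regions, such as the densest bins and longest gaps, were chosen after their values were seen. Zfp778, Spg7 and Cenpn of the lists lie outside the block. The members and lists were chosen with earlier results of these data known. The calculations were tested on simulated data, where 0 of 200 lists differed from a base-by-base count. Calculations used Python 3.11.15, pandas 2.3.3, numpy 2.4.6 and scipy 1.17.1.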

Additional observations from a re-analysis of the deposited data

How the results depend on the processing

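Alternatives changed 1 choice at a time, apart from the listed starts, which changed both the window and the genes counted. Only intervals at or above the median score of their list: DMSO coverage was 7.997%, overlap 27.6% of EnPGC-1 and 59.6% of DMSO intervals, 91.7% of bins had at least 2 times more EnPGC-1 bases, 23 genes were marked by EnPGC-1 alone and 1 by DMSO alone, and median gene coverage in the DMSO list was 7.77%. With equal numbers of highest-scoring intervals in both whole lists, the ratio of intervals in the block reversed to 0.852. The ratio of covered bases was then 1.98, EnPGC-1 coverage 24.8%, overlap 48.5% and 48.5%, bins 51.4%, genes marked by 1 list alone 9 and 9, and median gene coverage in the EnPGC-1 list 28.4%. EnPGC-1 minus DMSO coverage then turned to -2.11 points at Hsbp1, -8.44 at Zdhhc7, -5.70 at Irf8 and -5.30 at Map1lc3b. Merged within 1000 bp, the ratio of intervals was 1.09 and overlap 57.5% and 89.4%. Intervals of 500 bp or more gave overlap of 26.6% and 82.3%, 32 genes marked by EnPGC-1 alone, 30 by DMSO in all, and median gene coverage of 7.39% in the DMSO list. Counting deposited entries gave a ratio of 3.46, overlap of 50% gave 16.7% and 74.2%, bins of 25 kb gave 94.4%, and 4 times the bases as the limit gave 36.1% of bins. Within 2500 bp of a gene end, 3 genes were marked by EnPGC-1 alone. Joining within 5 kb gave 0.507 Mb for the longest EnPGC-1 domain touching the block. Chosen after seeing the data were the windows around listed starts (37 genes marked by EnPGC-1, 22 by DMSO, 2 by DMSO alone, of 45 genes) and the differences of single genes. The fewer intervals in the equal-number lists come from their construction, and otherwise the cause was not tested. Of 74 summary values under an alternative, 40 stayed within 1.5 times or within the counting interval, 33 moved and 1 reversed.

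No paired analysis was possible because each treatment has 1 list that carries no replicate number, and leaving out a replicate was not possible for the same reason. Depth, the calling threshold, the control and any pooling of samples can each move the number and width of intervals, and none can be matched between the lists here. The score ranks intervals and is not a level of acetylation. Genes without a listed start, including the forkhead genes, could not be placed by strand.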
